A study of Mus musculus with 14 samples.

Results

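H3K27me3, the trimethylation of lysine 27 on histone H3, was mapped by chromatin immunoprecipitation and sequencing (ChIP-seq) in basal keratinocytes of newborn mice. The members described are the peaks that the authors called on chromosomes 1 to 19 in the H3K27me3 lists of replicates 1 and 2. Replicate 1 held 5793 such peaks and replicate 2 held 3048, of 25627 peaks on these chromosomes in the 6 replicate lists read (H3K27me3, H2AK119ub and Ring1b, 2 replicates each). Peaks of the 2 replicates that shared at least 1 bp were joined, which gave 2813 regions found in both. The series holds 14 samples in 7 groups of 2, and the other 8 samples were not analysed here.

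Every group came from mice at postnatal day 0 of the genotype Krt14-RFP; Krt10-H2B-GFP, with no mutant or treated animals. The red reporter follows Krt14, which marks the basal layer, and the green nuclear reporter follows Krt10, which marks the suprabasal layers. Epidermis was peeled from back skin, and cells with Sca1, strong red and no green signal were sorted. Each ChIP for a histone mark (H3K27me3, H2AK119ub) used 400000 cells and each Ring1b ChIP used 6000000. Whether the replicates were separate animals is not stated in the labels, so differences between them measure only the spread between these samples. In such a pool of cells, a mark carried by fewer cells and a weaker mark in all cells cannot be told apart.

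Polycomb proteins keep developmental genes silent in cells that do not use them. Polycomb repressive complex 2 (PRC2) writes H3K27me3, and its subunit Eed also binds the mark, so that it can spread along chromatin into broad domains. PRC1, whose catalytic subunit is Ring1b, ubiquitinates histone H2A (H2AK119ub), and its Cbx subunits bind H3K27me3. In the epidermis, loss of Polycomb function is known to let Merkel cell genes and other lineage genes be expressed.

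The promoter sequences below are shown because H3K27me3 lay over the first 5 in both replicates and over neither of the last 2, which belong to the keratins that define the basal layer. Each runs from 250 bases before to 50 bases after a start site (RefSeq, GRCm38.p6), is written 5′ to 3′ on the gene's strand, and has every CG in capitals. Nkx1-1 encodes a homeobox factor, Igsf21 an immunoglobulin family protein of synapses, and Cilp2 a protein of cartilage matrix. Krt8 and Krt18 are the keratin pair of simple epithelia and Merkel cells, and Krt5 and Krt14 are the pair of basal keratinocytes.
Nkx1-1 (chr5:33434041-33434340, minus strand): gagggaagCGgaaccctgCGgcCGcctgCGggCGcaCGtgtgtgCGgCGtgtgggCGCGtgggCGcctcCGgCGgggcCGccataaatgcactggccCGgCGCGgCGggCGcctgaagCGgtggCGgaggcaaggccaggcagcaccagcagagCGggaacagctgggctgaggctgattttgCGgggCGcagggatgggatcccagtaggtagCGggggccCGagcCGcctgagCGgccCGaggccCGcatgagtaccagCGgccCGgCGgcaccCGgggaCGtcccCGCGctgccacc
Igsf21 (chr4:140246762-140247061, minus strand): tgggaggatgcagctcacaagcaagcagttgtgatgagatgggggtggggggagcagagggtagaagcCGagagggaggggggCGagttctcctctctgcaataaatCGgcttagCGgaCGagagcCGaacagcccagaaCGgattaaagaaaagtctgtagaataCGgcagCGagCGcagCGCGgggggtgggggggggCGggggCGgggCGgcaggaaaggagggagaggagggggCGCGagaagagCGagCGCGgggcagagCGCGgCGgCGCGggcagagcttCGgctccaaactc
Cilp2 (chr8:69887343-69887642, minus strand): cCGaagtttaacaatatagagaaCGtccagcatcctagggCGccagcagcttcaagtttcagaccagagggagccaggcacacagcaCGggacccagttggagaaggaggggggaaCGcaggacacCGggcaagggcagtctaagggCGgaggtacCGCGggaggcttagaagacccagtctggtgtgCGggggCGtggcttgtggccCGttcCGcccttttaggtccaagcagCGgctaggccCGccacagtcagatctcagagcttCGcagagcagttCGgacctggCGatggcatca
Krt18 (chr15:102027966-102028265, plus strand): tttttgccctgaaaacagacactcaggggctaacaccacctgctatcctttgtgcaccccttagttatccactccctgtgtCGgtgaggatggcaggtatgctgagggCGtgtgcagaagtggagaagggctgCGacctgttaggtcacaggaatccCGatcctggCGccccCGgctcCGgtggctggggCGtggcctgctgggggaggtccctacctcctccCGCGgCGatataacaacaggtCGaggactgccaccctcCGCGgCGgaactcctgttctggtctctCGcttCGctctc
Krt8 (chr15:102004293-102004592, minus strand): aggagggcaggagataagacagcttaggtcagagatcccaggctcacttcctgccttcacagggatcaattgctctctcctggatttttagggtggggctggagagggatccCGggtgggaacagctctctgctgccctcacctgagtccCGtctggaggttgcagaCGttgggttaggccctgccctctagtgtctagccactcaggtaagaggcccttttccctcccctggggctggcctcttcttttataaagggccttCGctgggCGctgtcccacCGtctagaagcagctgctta
Krt5 (chr15:101712856-101713155, minus strand): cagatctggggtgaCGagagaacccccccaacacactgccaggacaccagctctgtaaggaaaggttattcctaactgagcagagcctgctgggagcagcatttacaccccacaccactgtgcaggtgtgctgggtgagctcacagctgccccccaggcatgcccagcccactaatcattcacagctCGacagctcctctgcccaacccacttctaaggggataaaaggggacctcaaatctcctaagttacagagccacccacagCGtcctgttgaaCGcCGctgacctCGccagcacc
Krt14 (chr11:100205981-100206280, minus strand): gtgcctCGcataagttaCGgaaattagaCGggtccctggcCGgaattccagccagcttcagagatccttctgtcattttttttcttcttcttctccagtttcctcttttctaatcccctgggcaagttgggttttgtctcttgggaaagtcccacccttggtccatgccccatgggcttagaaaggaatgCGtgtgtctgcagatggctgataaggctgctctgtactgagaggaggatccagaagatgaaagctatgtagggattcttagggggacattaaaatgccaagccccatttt
The windows held 37, 26, 18, 17, 6, 6 and 5 CG in the order printed. Over 20085 RefSeq promoter windows of this length on chromosomes 1 to 19 the median was 14 (quartiles 4 and 25), and 95.6% held at least 1, counting a sequence that reads the same on both strands. Krt8, which carried H3K27me3, and Krt5, which did not, had the same count.

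The replicates differed in reach and in input reads per kb of peak, which bears on every value below. Replicate 1 covered 40.3 Mb and replicate 2 covered 19.99 Mb. Reads per kb of peak were 126 for ChIP and 11.8 for input in replicate 1, and 116 for ChIP and 22.3 for input in replicate 2. The ratio of ChIP to input reads in a peak was therefore higher in replicate 1 (median 8.32, quartiles 6.10 and 11.5) than in replicate 2 (4.70, quartiles 3.66 and 5.78). This ratio was not scaled for library size, so it ranks peaks within a replicate and does not compare the replicates. In the H2AK119ub and Ring1b lists input reads per kb were 22.1 to 24.1, so replicate 1 of H3K27me3 was the list that differed. Whether this reflects background or the depth or scaling of the input was not tested. Peaks were called on the ChIP signal, so a ratio above 1 is no finding. ChIP reads fell almost evenly on both strands, with 52.4% and 51.9% on the plus strand. The deposited p-value was above 0.05 in 2.09% of replicate 1 peaks and 0.0328% of replicate 2 peaks.

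Replicate 2 formed a nested set of replicate 1. Of its 3048 peaks, 3038 (99.7%) met a replicate 1 peak, while 2839 of the 5793 replicate 1 peaks (49.0%) met one of replicate 2. In 2497 of the 2813 shared regions (88.8%) the replicate 2 signal lay wholly inside the replicate 1 peak. The median shared region spanned 7191 bp (quartiles 5017 and 11446, range 2046 to 139975), of which both replicates covered 4395 bp in the median. A single peak from each replicate made up 2605 regions, while replicate 2 had several peaks in 185 regions (up to 4) and replicate 1 in 26. The boundary of the sharing rule was seldom close: 4 of 3064 overlapping pairs shared less than 500 bp, the smallest overlap was 95 bp, and the smallest gap of an unshared replicate 1 peak was 859 bp.

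The 2954 replicate 1 peaks without a partner were shorter and weaker than the shared ones. Their median length was 3231 bp, their median height 29 reads of coverage and their median ratio 6.24, against 7090 bp, 61 and 11.2 for the 2839 shared replicate 1 peaks. A promoter was the authors' location class for 25.6% of the unshared and 67.7% of the shared peaks. Which of the unshared peaks would appear in a replicate 2 with the input reads per kb of replicate 1 was not tested.

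Within the shared regions the replicates ranked sites alike. Spearman's rho over the 2813 regions was 0.701 for the log2 ratio (Pearson's r 0.706), 0.840 for peak height (0.833) and 0.840 for the length covered, taken as log10 (0.897). Regions are not independent replicates, and the points of a replicate share its library and input. The ratio of replicate 1 was a median 2.44 times that of replicate 2, with 5th and 95th percentiles of 1.63 and 3.41. Length and ratio were only loosely related, with rho of 0.174 in replicate 1 and 0.223 in replicate 2. Length and height were more closely related, with rho of 0.557 and 0.509.

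**Figure D1:**
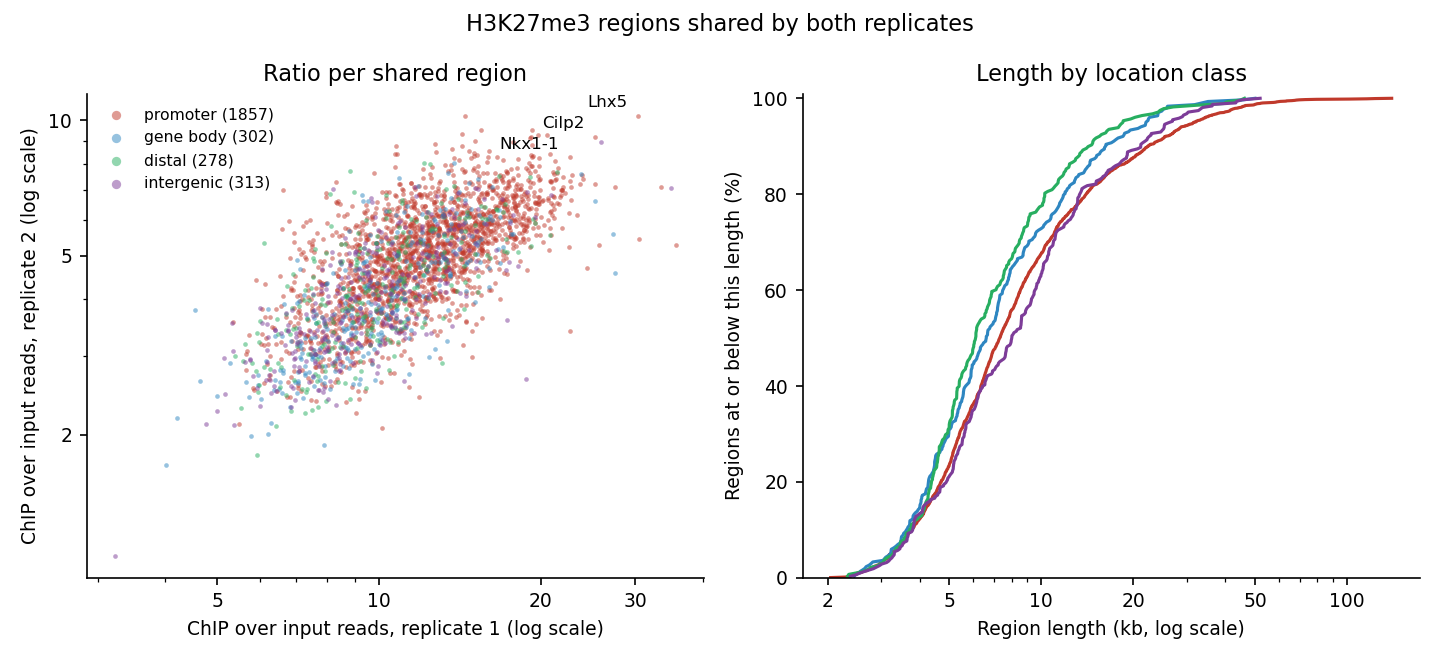
Left, ratio of ChIP to input reads in replicate 1 (x, log scale) and replicate 2 (y, log scale) for 2750 shared regions, coloured by location class; right, cumulative share of regions (%) by region length (kb, log scale), same colours. The 63 regions not drawn are 46 with a promoter row in 1 replicate only and 17 of mixed class, where the longest peaks of the replicates differed in class. No region drawn outside promoters exceeds 51972 bp, and Lhx5, Cilp2 and Nkx1-1 lead the averaged ranks.

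Promoters held most of the shared regions. Of the 2813, 1857 (66.0%, 95% Wilson interval 64.2 to 67.7) had a promoter row in both replicates. By the authors' classes, 302 lay in gene bodies, 278 were distal to a gene and 313 intergenic. Promoter regions had the highest ratios, with medians of 12.03 in replicate 1 and 5.13 in replicate 2. Gene body regions had 9.71 and 3.89, distal regions 9.91 and 4.17, and intergenic regions 9.40 and 3.92. Median lengths were 7308 bp at promoters, 6608.5 bp in gene bodies, 6102.5 bp for distal and 8012 bp for intergenic regions. When regions were split into quartiles of the ratio rank averaged over both replicates, the promoter share was 41.2%, 63.9%, 75.1% and 83.9% from the lowest to the highest. By length the promoter share was nearly flat, at 62.9%, 66.3%, 65.9% and 69.0% from the shortest to the longest quartile.

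The regions of highest ratio rank lay at developmental regulators such as Lhx5, Gata2, Pax6 and Pax2 and at genes of other kinds such as Cilp2, Igsf21 and Shank1. The first was at Lhx5, a LIM homeobox factor of the forebrain (chr5:120421060-120440807, mm10), with 4613 ChIP reads over 152 input reads in replicate 1 and 2880 over 281 in replicate 2 (ratios 30.3 and 10.2). Cilp2 followed at chr8:69879230-69890756, with ratios of 25.2 and 9.20. The Nkx1-1 region (chr5:33424193-33438161) had ratios of 22.6 and 8.29 and that of Igsf21 (chr4:140241675-140249793) 20.5 and 9.25. The upper quartiles over all shared regions were 13.9 and 5.80. That these 4 regions lay above them follows from their choice by ratio rank and is no finding. The Igsf21 region met no Ring1b peak in either replicate. It met an H2AK119ub peak of at least 1 replicate but no shared H2AK119ub region. The Lhx5, Cilp2 and Nkx1-1 regions met shared regions of both Ring1b and H2AK119ub.

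The next in rank were Skor1, a corepressor of spinal cord neurons, the Mir9-3 gene with its host transcript, Gata2, a regulator of blood stem cells, and Hes2, a basic helix-loop-helix repressor. Their ratios ran over 19.7 to 21.5 in replicate 1 and 7.83 to 9.29 in replicate 2. Pax6, the eye and forebrain regulator, had 23.8 and 7.55 over a region of 46433 bp that also takes in its antisense genes Pax6os1 and Paupar. Pax2, needed for kidney and midbrain, had 22.9 and 7.55 over 58515 bp. A region in the gene body of Shank1, a scaffold of the postsynaptic membrane, and one classed as distal to Zfp423, a zinc finger factor, completed the first 12. Thus 10 of these lay at promoters.

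The tallest by averaged rank was the cholinergic locus, where Chat, the enzyme that makes acetylcholine, and Slc18a3, its vesicular transporter, share a region (chr14:32455581-32467928). Its height was 178 reads in replicate 1 and 134 in replicate 2, and its ratios were 18.4 and 6.79. Map6, a microtubule stabiliser of neurons, had heights of 177 and 120 but ratios of only 9.85 and 6.22. The others were Gata2, Msx1, Sall1, Sim2 and Onecut2, all transcription factors, with heights of 169 to 186 in replicate 1 and 99 to 124 in replicate 2. An intergenic region (chr13:84339668-84355456), 43.7 kb from the nearest protein-coding gene, Tmem161b, had 186 and 102. Over all 2813 regions height and ratio were related, with rho of 0.639 in replicate 1 and 0.725 in replicate 2, although Gata2 was the single region among both the 8 tallest and the 12 of highest ratio rank.

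The longest domains lay over Hox clusters, over gene pairs and at the single genes Pax3, Dmbx1 and Nkx2-3. The Hoxd cluster with Evx2 was covered by 1 region of 139975 bp (chr2:74634591-74774565), of which replicate 2 covered 128105 bp. Regions of 123739 bp, 115942 bp, 101952 bp and 79454 bp lay over Hoxa with Evx1, over Hoxc8 to Hoxc13, at Pax3, and over Zic1 with Zic4. Dmbx1 (72877 bp), Nkx2-3 (69723 bp) and the Krt8 and Krt18 pair (68225 bp) followed. The 304 regions over 20 kb held 34.0% of all bases in shared regions, and 26 exceeded 50 kb. Of the 8 longest, the Krt8 and Krt18 region had the lowest ratios, 12.7 and 4.44, and the Hoxd region the highest, 21.9 and 7.00.

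Most domains were short next to the genes they marked. Protein-coding genes with a promoter row in both replicates had a median RefSeq span of 31.7 kb (quartiles 8.76 and 114), against 16.4 kb for the 18061 genes with no promoter row in either. Among 269 marked genes of up to 5 kb, 202 (75.1%) lay wholly inside shared regions. For genes over 5 and up to 20 kb this held for 118 of 489 (24.1%), for those over 20 and up to 50 kb for 13 of 340, and for none of 767 longer ones, where a median 3.23% of the span was covered. A gene can lie whole only in a region longer than itself, so part of this gradient follows from length alone. The longest wholly covered genes were Hoxd3 (36.3 kb), Xkr9 (33.5 kb), Lhx2 (30.5 kb) and Lhx6 (24.0 kb). Seen from the regions, 593 (21.1%) touched no protein-coding span, 2027 (72.1%) touched 1, and 193 touched more, up to 17 in a single region.

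**Figure D2:**
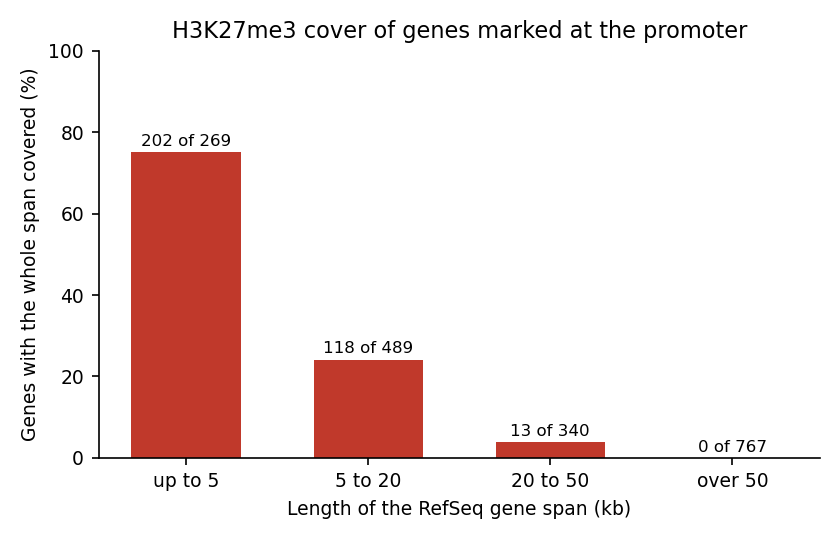
Bars give the share (%) of genes with H3K27me3 at the promoter in both replicates whose whole RefSeq span lay in shared regions, by span length (kb), with counts above. The share is 75.1% for spans up to 5 kb, and no span over 50 kb is covered whole.

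Regions outside promoters included sites inside large neuronal genes. By averaged ratio rank the first 5 were the Shank1 gene body (chr7:44347967-44359426, ratios 23.8 and 7.58), a region distal to Zfp423 (chr8:87656833-87664376, 21.5 and 7.68), one distal to A730006G06Rik (chr17:48092479-48100670, 19.1 and 7.48), an intergenic region (chr7:24929448-24958389, 20.9 and 6.82) and the gene body of Nrxn2, a presynaptic adhesion protein (chr19:6494533-6502741, 25.2 and 6.63). The Shank1 and Nrxn2 regions met shared H2AK119ub regions but no Ring1b peak in either replicate. The other 3 met both. In RefSeq the intergenic region overlaps the span of Erfl. The distal regions overlap the spans of Zfp423 itself and of 9830107B12Rik. These classes therefore follow the authors' annotation and not RefSeq.

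The marks of PRC1 were most often found on the long domains. Of the 2813 regions, 1389 (49.4%) met a shared H2AK119ub region, 1199 (42.6%) a shared Ring1b region, 912 (32.4%) both, and 619 (22.0%) met no peak of either antibody in any of their lists. By length, from the shortest to the longest quartile, 32.0%, 33.6%, 48.5% and 83.5% met H2AK119ub and 28.8%, 28.3%, 43.4% and 70.0% met Ring1b. A longer region has more room to meet another, so the share of bases was taken as well. H2AK119ub regions covered 25.2%, 23.5%, 27.8% and 54.0% of the bases in the same quartiles, and Ring1b regions 15.4%, 12.1%, 16.9% and 35.7%. On this measure the 3 shorter quartiles lay close together and the longest stood apart. With replicate 1 as the only H3K27me3 list the shares that met H2AK119ub and Ring1b were 28.6% and 24.4%.

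Both location and length went with this overlap. In the longest quartile, H2AK119ub was met by 92.2% of promoter regions and 64.2% of the others, and Ring1b by 83.5% and 39.9%. In the shortest quartile, H2AK119ub was met by 36.8% of promoter regions and 23.8% of the others, and Ring1b by 35.0% and 18.4%. By quartile of ratio rank, from the lowest to the highest, H2AK119ub regions covered 15.6%, 28.7%, 40.2% and 62.2% of H3K27me3 bases and Ring1b regions 9.04%, 14.6%, 20.5% and 45.2%. Ring1b regions covered 7.38% of bases in gene body regions, 13.2% in distal and 12.4% in intergenic ones, against 33.1% at promoters, and 3.58% in the 17 regions of mixed class. These shares describe called lists whose shortest peaks differ in length, and regions of a list are not replicates, so no test was made over them.

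**Figure D3:**
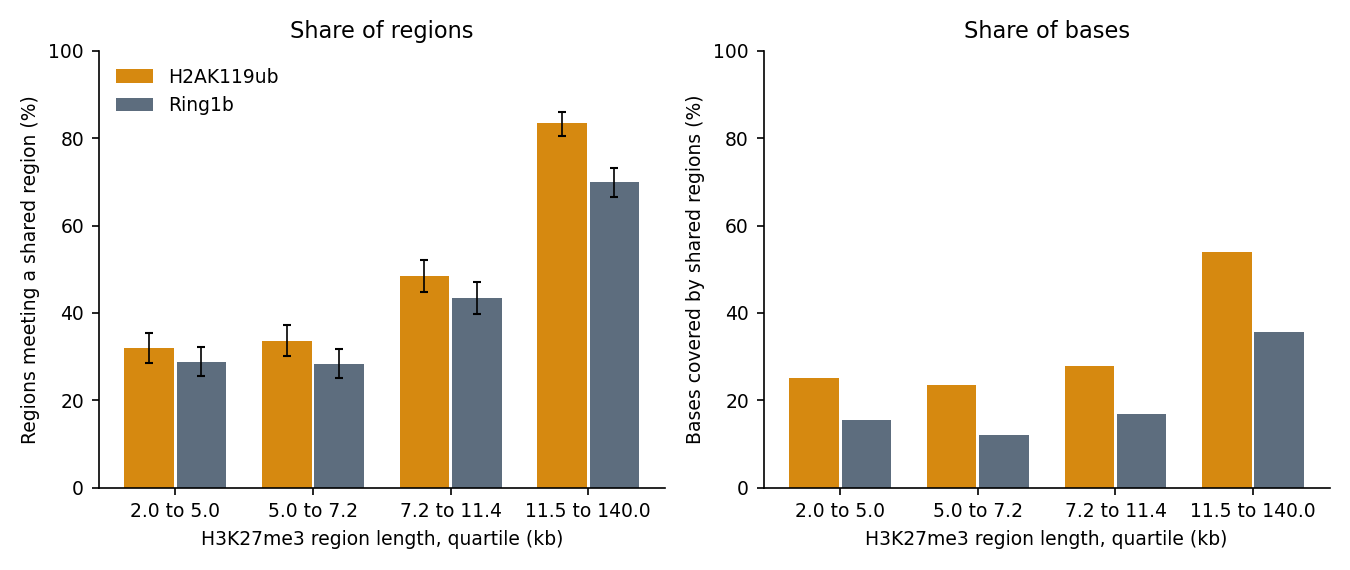
Left, share of H3K27me3 regions (%) that meet a shared H2AK119ub or Ring1b region, with 95% Wilson intervals for counting error; right, share of their bases (%) covered by such regions. Both are by quartile of region length (kb), and both rise most into the longest quartile, to 83.5% and 70.0% of regions and 54.0% and 35.7% of bases.

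The H3K27me3 lists were set against the lists of the other antibodies. The median length was 4611 bp and 4273.5 bp in the H3K27me3 lists, against 1615 bp and 2674 bp for H2AK119ub and 1362 bp and 1342 bp for Ring1b. The H3K27me3 lists averaged 4442 ± 239 bp (SD, n = 2) and the others 1748 ± 630 bp (SD, n = 4), without overlap. An exact two-sided permutation test over the 6 lists gave p = 0.133, the smallest that 2 against 4 lists allow, and 0.667 after Benjamini-Hochberg adjustment over 5 measures, so this design cannot reach 0.05. The shortest H3K27me3 peaks had 2003 and 2006 bp and the shortest of the other lists 500 bp, and whether these are settings of the caller was not stated. Among peaks of 2000 bp or more the medians were 4611 and 4273.5 bp for H3K27me3, against 3346 and 4051.5 bp for H2AK119ub and 3512 and 3551 bp for Ring1b, a difference of 827 bp in place of 2694 bp. Promoters took 46.2% and 61.9% of H3K27me3 peaks, against 49.6% and 47.1% for H2AK119ub and 78.5% and 76.4% for Ring1b (exact permutation p = 0.533).

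By gene, 1865 of 20665 protein-coding genes on chromosomes 1 to 19 had a promoter row in both H3K27me3 lists, which is 9.02% and the background for every count below, while 12.6% had one in either list. Per chromosome the share ran from 6.33% on chromosome 16 to 12.5% on chromosome 15. In all 1865 the promoter peaks of the replicates overlapped, although a gene with several peaks is described by 1 per replicate. For the marked genes the median ratio was 12.2 in replicate 1 and 5.21 in replicate 2. The counts of listed genes are descriptions without a test. Lists and families were chosen with earlier results of these data known, so shares above or below the background are not independent evidence. The Wilson intervals of the shares take genes as independent, although neighbours can share a domain.

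Most of the listed regulators of other lineages carried the mark. Of 34 neural regulators, 33 were marked in both replicates, with median ratios of 17.8 and 6.65. Lhx5, Pax6, Pax2 and Barhl1, homeobox and paired box factors of brain and sense organs, ranked highest among them. Lmx1b, a LIM homeobox factor of limb and midbrain, was the exception, with a promoter peak in replicate 1 only (471 ChIP over 58 input reads). Of 35 mesoderm and muscle regulators 28 were marked, led by Foxf1 (ratios 19.2 and 9.17), Foxc2 (19.1 and 8.36), Gata4 (21.4 and 7.40) and Tbx2 (21.3 and 7.37). Tbx6, Mesp2, Msgn1 and Myf5, early mesoderm and muscle factors, were among the 6 with no peak. Of 18 endoderm regulators 15 were marked, led by Cdx2 (21.1 and 7.60) and Pdx1 (18.0 and 7.23), the intestinal and pancreatic factors, while Hnf4a and Hnf4g had none. Of 15 blood and vessel regulators 11 were marked, led by Gata2 and Hlx (23.7 and 7.52), and Gata3, which keratinocytes themselves use, and Spi1 had none.

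All 9 Pax genes, all 14 Nkx genes and all 4 Zic genes were marked, as were 11 of 12 LIM homeobox genes, 12 of 16 T-box genes, 24 of 41 forkhead genes and 11 of 18 Sox genes. Genes of a family can share a domain: the 4 Zic genes lay in 2 peaks per replicate and the 24 marked Hox genes in 5 peaks of replicate 1 and 7 of replicate 2. All 9 Hoxd genes were marked, against 6 of 11 in Hoxa, 4 of 10 in Hoxb and 5 of 9 in Hoxc. Hoxb1 to Hoxb4 and Hoxc4 to Hoxc6, which lie toward the 3′ end of their clusters, were among the 10 Hox genes without a peak, and no H3K27me3 peak touched the spans of these 10. Gata3 among 5 Gata genes, and Dlx3 and Dlx4 among 9 Dlx and Msx genes, also had none.

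Many of the listed genes of neuronal signalling were marked as well. Of 28 axon guidance and neuronal membrane genes 20 were marked, led by Gad1, which makes the transmitter GABA (19.3 and 8.83), the potassium channel Kcnc1 (19.3 and 8.32), the glutamate transporter Slc17a7 (18.2 and 8.22) and the guidance cue Slit2 (18.0 and 7.84). The peaks at the 20 had median lengths of 8236 bp in replicate 1 and 5658.5 bp in replicate 2. Medians of the regulator lists above ran over 19884 to 31462 bp and 12920 to 25750 bp. Single genes overlapped, with 25503 and 11272 bp at Ntn1 and 6328 and 5191 bp at the muscle regulator Myod1. By symbol, 47 of 92 potassium channel genes (51.1%), 16 of 25 calcium channel genes (64.0%) and 12 of 42 collagen genes (28.6%) were marked. Solute carriers, at 51 of 362 (14.1%, 95% Wilson interval 10.9 to 18.1), lay above the background by less. Of 31 secreted ligands 15 were marked, led by Shh (22.7 and 7.35), Fgf8 (16.0 and 8.56), Fgf3 (16.9 and 7.46) and Gdf7 (21.9 and 6.81), while Wnt3, Wnt3a, Wnt5b and Wnt6 were among the 14 with no peak.

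Olfactory receptor, Zfp and ribosomal protein genes lay under the background, with 95% Wilson intervals that end at 0.658%, 4.32% and 4.93%. Only 2 of 1104 olfactory receptor genes (0.181%), Olfr94 and Olfr95, had the mark, with ratios of 6.11 and 3.17 and of 9.53 and 4.61. Of 360 Zfp genes 8 were marked (2.22%) and of 74 ribosomal protein genes none. Of 67 protocadherin genes 5 were marked (7.46%), which is near the background. The protocadherin count understates the cover, because the spans of 28 further protocadherin genes met a peak of at least 1 replicate that did not name them. Only 13 of these met peaks of both replicates. All 14 housekeeping genes, Actb and Gapdh among them, lacked any peak. Their 95% Wilson interval reaches 21.5%, so this number of genes does not set them apart from the background.

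**Figure D4:**
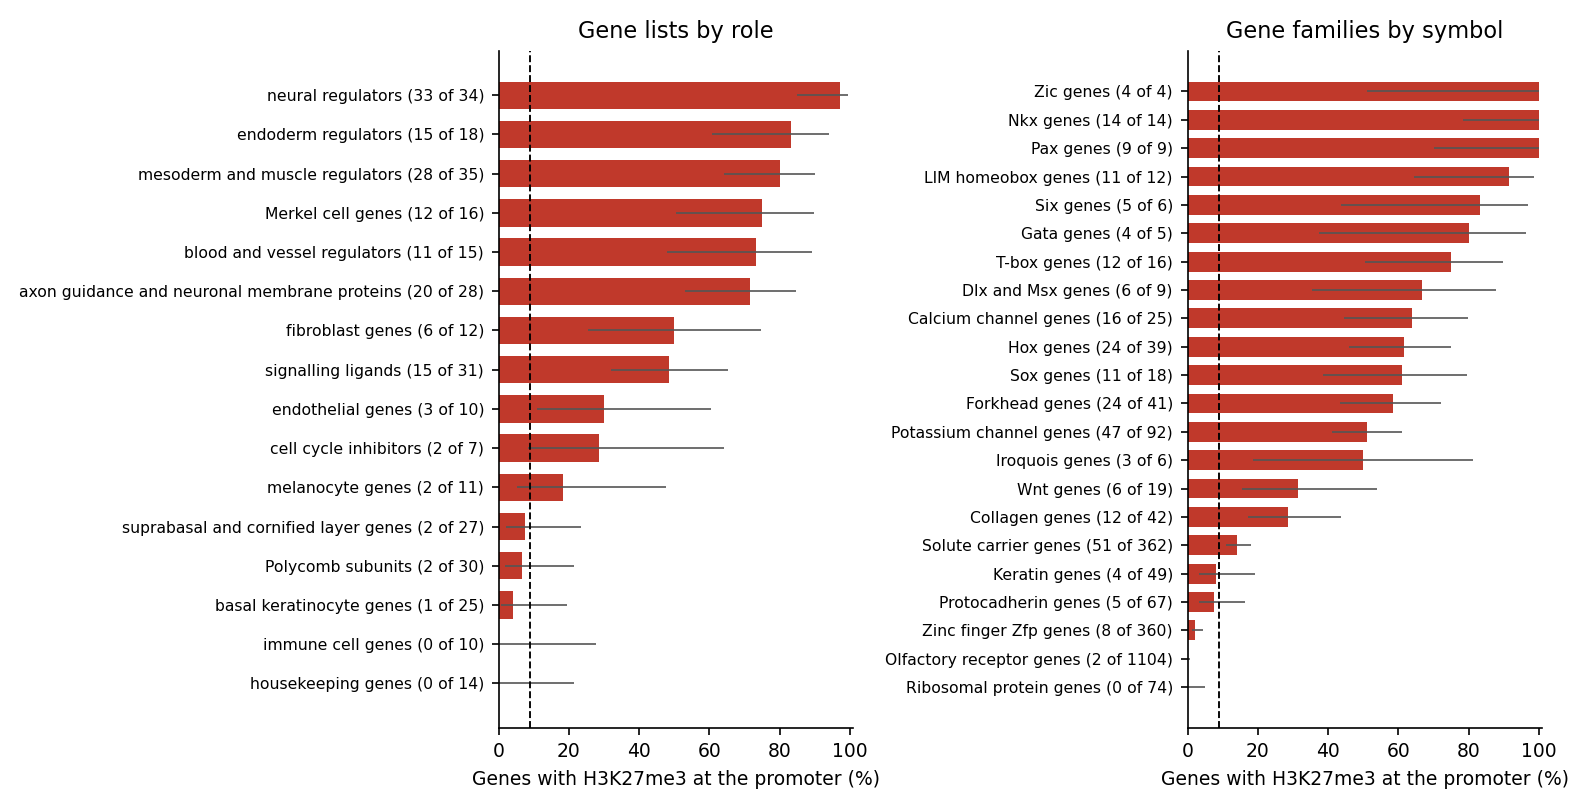
Share (%) of the genes in each list (left) or symbol family (right) with a promoter row in both H3K27me3 lists, with 95% Wilson intervals and counts in the labels; the dashed line marks the 9.02% of all protein-coding genes. Neural regulators (33 of 34) and the Zic, Nkx and Pax families stand highest, in lists chosen with earlier results known. Immune, housekeeping and ribosomal protein genes hold none, and the intervals of immune and housekeeping genes take in the dashed line.

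Krt5, Krt14, Krt15 and Trp63, the master regulator of stratified epithelium, had no H3K27me3 peak of any class. The same held for 24 of 25 basal keratinocyte genes, and the 1 marked gene (4.00%, 95% Wilson interval 0.71 to 19.5) is a share that this number of genes does not set apart from the background. The exception was Dst, a linker of hemidesmosomes with several start sites, with 309 ChIP over 46 input reads in replicate 1 and 129 over 42 in replicate 2 (6.72 and 3.07), both under the medians of all marked genes. Of 27 genes of the layers above, 24 had no peak, Krt1, Krt2, Krt77 and Ivl among them, and the 2 marked (7.41%) were near the background share. Prdm1 (8.77 and 3.91) and Alox12b (9.56 and 5.55), a lipid enzyme of the barrier, were marked, and Krt10 was named by a distal peak of 2514 bp in replicate 1 (7.28) and by another of 2399 bp in replicate 2 (2.28), which did not overlap. Of the defining markers checked, 0 of 6 basal and 0 of 6 suprabasal keratinocyte genes had the mark at the promoter. With 6 genes each, the 95% Wilson intervals reach 39.0% and take in the background share. These are marks on chromatin and not levels of RNA.

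Genes of the other cells of skin were split by cell type. Of 16 Merkel cell genes 12 were marked, with Sox2 (20.6 and 6.66), Insm1 (14.8 and 7.15), Pou4f3 (17.0 and 6.26) and Tubb3 (13.9 and 6.80) in the lead. Atoh1, which specifies these touch cells, had 15.5 and 5.94. Rab3c and Snap25 had no peak, while Krt20 had a distal peak and Chga a promoter peak in replicate 1 only. Of 12 fibroblast genes 6 were marked, led by Pdgfra (16.6 and 6.82), Prrx1 (17.1 and 6.68), Twist1 (14.4 and 5.51) and Fbn1 (11.1 and 5.42). Col1a2, Col3a1, Lum and Dcn were among the 5 with no peak. Of 11 melanocyte genes only Sox10 (10.6 and 6.36) and Kit (10.3 and 3.66) were marked, and the pigment genes Dct, Tyr, Tyrp1 and Pmel had no peak. Of 10 endothelial genes Flt1 (14.3 and 6.81), Sox17 (15.2 and 5.57) and Kdr (11.4 and 5.54) were marked. The other 7, Pecam1, Cdh5, Tek and Tie1 among them, had no peak. Of 10 immune cell genes none was marked, and 9 were named by no peak, although a peak of each replicate touched the span of Cd4.

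Of 30 genes for Polycomb subunits, Cbx8 (18.3 and 6.26) and Epop (7.49 and 3.77) were marked, a share of 6.67% that is near the background. The Epop ratios were under the medians of all marked genes, and Ezh1, Ezh2, Eed and Suz12 were among the 22 with no peak. Of 7 inhibitors of cyclin-dependent kinases, Cdkn2a and Cdkn2b were marked by a single peak of 50564 bp in replicate 1 and 43232 bp in replicate 2 (18.0 and 6.05), and Cdkn1c had a peak of 162 ChIP over 22 input reads in replicate 1 only.

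Of 49 keratin genes 4 were marked (8.16%), near the background, and 3 of these lay at the type II keratin cluster on chromosome 15. Its end holds the Krt8 and Krt18 domain (chr15:101988644-102056868), which was 1 peak in replicate 1 (9955 ChIP over 786 input reads) and 3 peaks of 2270, 17872 and 29891 bp in replicate 2. H2AK119ub peaks of both replicates lay over Krt8 and Krt18, and a Ring1b peak lay at the Krt8 promoter in both (2761 and 852 bp). H2AK119ub was not confined to this domain: promoter peaks of both replicates also lay at Krt7, Krt75, Krt82 and Krt87. Krt87, a hair keratin gene at the other side of the cluster, was the further marked member (12.7 and 6.92). Krt5, Krt71, Krt72, Krt73, Krt2, Krt1 and Krt77, which lie between, met no H3K27me3 peak. Nor did Krt7, a further keratin of simple epithelia, or the hair keratin genes Krt81, Krt83, Krt84 and Krt86. Krt75 and Krt82 had promoter peaks in replicate 1 only. On chromosome 11, Krt19 was marked more weakly (8.42 and 3.30).

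**Figure D5:**
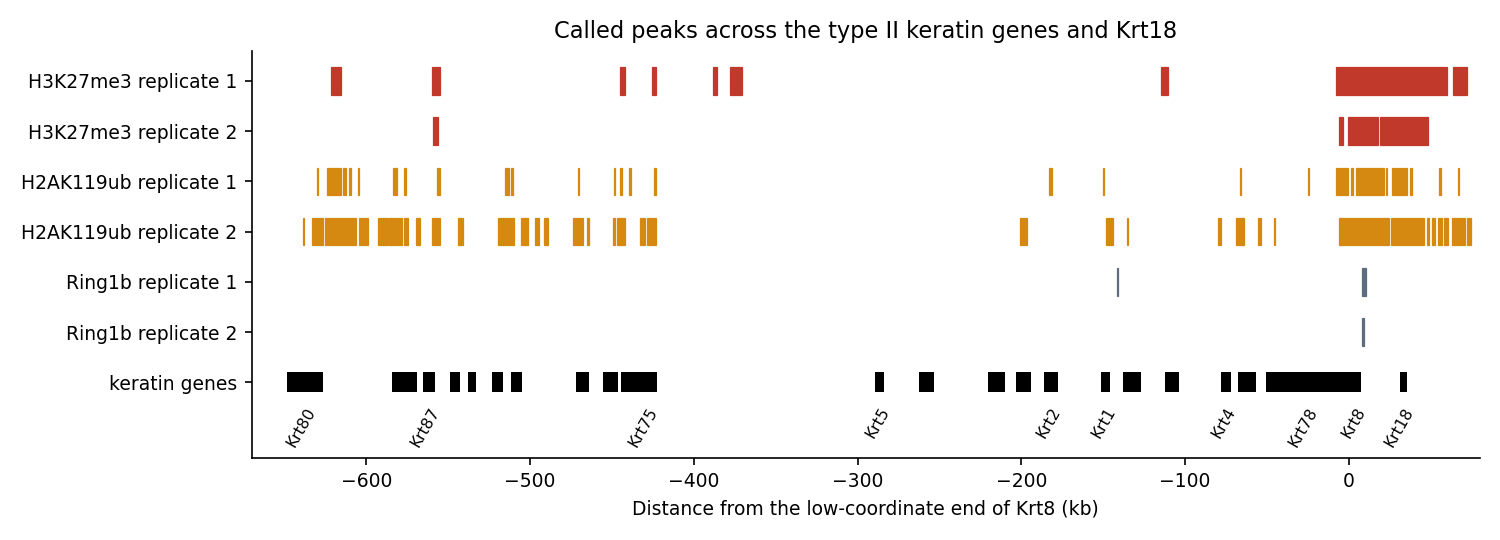
Called peaks of each replicate list across the type II keratin genes and Krt18; the x axis is the distance (kb) from the low-coordinate end of Krt8, bars are peaks, and black bars are RefSeq gene spans. The Krt8 and Krt18 end carries a domain of 68225 bp in replicate 1 and 3 peaks in replicate 2, and no H3K27me3 peak lies at Krt5 or Krt1.

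Among microRNA genes, 40 of 919 hairpins (4.35%) lay wholly inside 33 shared regions, against 37 of 3113 other RefSeq genes no longer than the longest hairpin (1.19%). Some of the 40 entries overlap, such as Mir129b inside Mir129-2 and Gm25641 inside Mir9-1, so they are not all separate loci. The 3 genes that make miR-9, a microRNA of the nervous system, were all among the 40, a group chosen after its values were seen. Mir9-3 lay in a region of 26248 bp (20.8 and 8.43), Mir9-1 in one of 36097 bp (19.8 and 7.52) and Mir9-2 in one of 38197 bp (19.8 and 6.76), on chromosomes 7, 3 and 13. Their mature product, which RefSeq gives with the same letters for all 3 genes, is shown with the seed (bases 2 to 8) in capitals.
miR-9-5p: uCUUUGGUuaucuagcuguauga
Mir10b, Mir196a-1, Mir196a-2 and Mir196b lay inside Hox domains, and Mir137, Mir132 with Mir212, and Mir34b with Mir34c were further members, with ratios of 9.87 to 17.9 in replicate 1 and 4.14 to 5.98 in replicate 2.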

How the data were processed

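ChIP-seq peak lists of 6 samples were read. Each sample's group and replicate came from its title. Per the submitters' processing notes, MACS2 2.1.0, SAMtools 0.1.19, Bowtie2 2.2.3, Trim Galore 0.4.1 and Bowtie 1.1.1 were used with build mm10. The tool that wrote the lists, the test behind the p-value and the base of the coordinates were not stated there. Coordinates stand as deposited and were treated as closed intervals. Per the file headers, each deposited row gives read counts for ChIP and for input by strand, the maximum height (a coverage signal), a p-value, a location class and gene names. The authors called peaks per replicate. The read counts were taken as deposited and not scaled further. Whether the input counts had been scaled was not stated, and library totals were not used here.

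Peaks of replicates were joined at 1 bp or more of overlap (Python 3.11.15, pandas 2.3.3, numpy 2.4.6, SciPy 1.17.1, checked on simulated lists). The ratio is ChIP over input counts summed over a region's peaks. Of 3673 gene names, 3589 matched a current RefSeq symbol (GRCm38.p6), 78 a synonym and 6 none. A gene was marked where both lists named it in a promoter row. Intervals are 95% Wilson intervals and cover counting error only.

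Named regions needed 20 input reads in each replicate (2802 regions) and were the first 12 by averaged ratio rank, 8 by height rank, the 8 longest and 5 outside promoters. Of each list, up to 4 marked members by averaged rank and up to 4 without a peak were named, and members outside this rule, such as Lmx1b, Atoh1, Krt10 and the Hox genes, were named after their values were seen. Members, lists and families were chosen with earlier results of these data known, and lists share some genes. A planned comparison of promoter CpG content was void, because the RefSeq table held 1378 of 1865 marked genes (73.9%, under the 80% needed).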

Additional observations from a re-analysis of the deposited data

How the results depend on the processing

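Of 30 recomputed counts, lengths and shares 21 moved by less than the spread between replicates (counts: within 1.5 times), under a 50% overlap rule, a deposited p of at most 0.001, other gene rules and each list alone. The median ratio ran over 8.32 to 11.2 in replicate 1 and 4.70 to 4.82 in replicate 2, also with an added read or 20 or more input reads. The 17 recomputed differences between lists kept their sign, but none of these designs can pass 0.05, so their p-values say nothing of stability. The median length was 4395 bp over the bases covered by both replicates. Counting a peak in either list, 70.9% of regions met H2AK119ub and 55.9% met Ring1b. With a single H3K27me3 list, the regions numbered 3048 to 5793, their median length was 4273.5 to 4611 bp, the promoter share 46.2% to 61.9%, the share meeting H2AK119ub 28.6% to 48.2% and that meeting Ring1b 24.4% to 40.5%, and marked genes numbered 1870 to 2599. The difference in median length was 2525 to 3003 bp without each of the 6 lists in turn, 1318 bp at a deposited p of at most 0.001 and 827 bp for peaks of 2000 bp or more, and that in promoter share −16.6 to −0.982 percentage points without each list. With the replicate number as a block the differences were 2694 bp (exact permutation p = 0.111, the smallest of 9 arrangements) and −8.81 points (p = 0.556). The labels say nothing of shared batches behind the numbers, and 2 numbers do not allow a check of pairing. The cause of these shifts was not tested. The CpG comparison and its alternatives were not run, since too few marked genes had a promoter sequence. What a shallower library would miss could not be told, since library totals were not used.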
